A study of Mus musculus with 71 samples.

Results

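The 9 protein-coding mouse genes, Adam8, Crip3, Dok3, Noxred1, Ssc5d, Ifi203, Recql4, Shkbp1 and Fndc8, were followed through 71 bulk RNA-seq libraries of mouse brain. They are 9 of 55416 gene identifiers in the count table, and they were selected on their measured hippocampal levels, as genes that fell far after burn against sham. The hippocampal burn and sham levels are given as a description, and calls made on them in any fit describe the choice and test nothing. All 9 were detected in every library, and all 9 passed the filter on low counts in each of the 3 brain regions.

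The libraries came from C57BL/6J mice and from mixed brain tissue rather than sorted cells. Every mouse received isoflurane anaesthesia, buprenorphine at 0.1 mg/kg, shaving of the site, and drinking water with paracetamol at 1 mg/mL for 5 days. Burn mice had a brass rod of 19 mm, heated above 90 °C, held for 10 s on the right flank, which gave a full-thickness burn of 7 to 8% of the body surface. Excision mice lost full-thickness skin on the back, cut along a punch template of 12 mm, and sham mice were shaved at the back without injury, so burn and comparison groups also differed in body site. Time after injury, age and sex were not in the labels. The hippocampus gave 10 burn, 10 excision and 9 sham libraries, the frontal cortex gave 10, 10 and 8, and the piriform cortex gave 5, 4 and 5. By their titles, hippocampus and frontal cortex libraries belonged to batches 1 and 2, and those of the piriform cortex to a batch of their own. The titles do not say what a batch was. The piriform libraries carry a frontal cortex name in their titles, and the tissue label was used.

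Total counts per library ran from 6.65 M (M, mega) to 34.1 M in hippocampal batch 1, from 30.7 M to 70.7 M in hippocampal batch 2, and from 46.8 M to 87.8 M in the cortical libraries. In 4 libraries the title named another treatment than the treatment label did (3 of frontal cortex batch 2 and 1 of piriform cortex); the label was used, and the main cortical comparisons are also given without them. Summed markers of hippocampal neurons were 440 to 723 CPM (a gene's counts per M of scaled total counts) in the hippocampus and 124 to 265 CPM in the cortical libraries, apart from piriform sham replicate 1 at 523 CPM. Hippocampal sham replicate 3 held 255 CPM of neutrophil markers, against at most 8.67 CPM in the hippocampal burn libraries.

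Several of the genes are known from white blood cells. Adam8 is a membrane-anchored metalloprotease of leukocytes and activated microglia, Dok3 is a docking adaptor that dampens receptor signalling in myeloid and B cells, and Ifi203 belongs to the interferon-inducible HIN-200 family of nucleic acid sensors. Ssc5d encodes a soluble protein with scavenger receptor cysteine-rich domains. The others have different roles: Recql4 is a RecQ helicase of DNA replication and repair, Shkbp1 binds the adaptor SH3KBP1, which takes part in endocytosis of the EGF receptor, and Crip3 is a small LIM-domain protein. Noxred1 carries an NADP-dependent oxidoreductase domain and Fndc8 a fibronectin type III domain, and little is known of either in brain.

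The genes lie on 7 chromosomes. In GRCm38 with GENCODE M21 models they occupy chr7:139978932-139992562 (Adam8, minus strand), chr17:46428926-46431776 (Crip3, plus), chr13:55523231-55529296 (Dok3, minus), chr12:87221040-87238732 (Noxred1, minus), chr7:4925785-4944826 (Ssc5d, plus), chr1:173920407-173942672 (Ifi203, minus), chr15:76703553-76710548 (Recql4, minus), chr7:27342133-27356019 (Shkbp1, minus) and chr11:82892124-82900801 (Fndc8, plus). All 3 genes on chromosome 7 are far apart.

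As described below, 8 of the genes moved together from library to library, and Ifi203 did not move with them outside the hippocampus. The sequence before a RefSeq start is therefore shown for 3 of the 8, beside that of Ifi203. RefSeq promoter windows (GRCm38.p6, the 250 bases before the start, read 5′ to 3′ on the gene's strand) were matched for 6 of the 9 genes, and those of Crip3, Ssc5d and Recql4 were not among them. The windows are chr7:139992563-139992812 (Adam8), chr13:55528539-55528788 (Dok3), chr7:27356009-27356258 (Shkbp1) and chr1:173942493-173942742 (Ifi203), all on the minus strand. The Dok3 window lies wholly inside the Dok3 span given above, downstream of its GENCODE start. Capitals mark matches, on either strand, to 7 short motifs: GGGCGG (GC box), CCAAT (bound by NF-Y), CACGTG (E-box), TATAAA (bound by the TATA-binding protein), GAGGAA (ETS core as bound by PU.1), the core of the interferon response element (a pair of GAAA blocks with 2 bases of any kind between them) and TGANTCA (AP-1). No 2 matches shown overlap.
Adam8: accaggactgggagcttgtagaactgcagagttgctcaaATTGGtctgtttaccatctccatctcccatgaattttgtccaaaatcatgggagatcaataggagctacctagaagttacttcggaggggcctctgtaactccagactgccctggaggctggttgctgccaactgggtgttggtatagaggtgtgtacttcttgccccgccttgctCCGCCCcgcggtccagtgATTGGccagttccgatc
Dok3: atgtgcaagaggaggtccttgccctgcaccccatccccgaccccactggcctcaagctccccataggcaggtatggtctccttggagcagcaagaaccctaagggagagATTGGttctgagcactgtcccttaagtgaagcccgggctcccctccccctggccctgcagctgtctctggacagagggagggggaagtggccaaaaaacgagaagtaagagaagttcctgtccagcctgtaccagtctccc
Shkbp1: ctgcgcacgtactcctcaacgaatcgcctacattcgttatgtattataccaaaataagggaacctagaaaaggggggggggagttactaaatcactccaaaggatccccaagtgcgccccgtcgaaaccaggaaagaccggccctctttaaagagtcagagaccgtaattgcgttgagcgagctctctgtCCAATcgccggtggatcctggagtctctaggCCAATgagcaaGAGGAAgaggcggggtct
Ifi203: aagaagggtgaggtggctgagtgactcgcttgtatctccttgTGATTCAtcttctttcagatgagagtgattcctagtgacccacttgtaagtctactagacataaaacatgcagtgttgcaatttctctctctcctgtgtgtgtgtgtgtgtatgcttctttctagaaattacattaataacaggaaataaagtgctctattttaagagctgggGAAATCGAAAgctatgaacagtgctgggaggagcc
CCAAT was found in 3 of the 6 windows, with 2 matches in Adam8, 2 in Shkbp1 and 1 in Dok3, and 34.5% of 27025 RefSeq promoters of this length hold it. GGGCGG was in Adam8 alone, against 32.9% of all promoters, and GAGGAA in Shkbp1 alone, against 23.1%. The Ifi203 window shown held 1 match to the core of the interferon response element, found in 3.04% of all promoters, and 1 to TGANTCA, found in 6.87%. RefSeq gives Ifi203 another start further upstream, whose window (chr1:173942673-173942922, GC content 47.2%) held 1 match to TGANTCA and none to the interferon core. That upstream window is the one directly before the GENCODE start of Ifi203. The window printed was picked because it holds both motifs, and it lies mostly inside the Ifi203 span. It ends next to the annotated start of Mndal (chr1:173942491), which overlaps Ifi203 on the same strand, so its matches also lie before Mndal. CACGTG and TATAAA were in none of the 6. GC content was 52.8% in Adam8, 59.2% in Dok3, 52.4% in Shkbp1 and 41.6% in Ifi203, with a median of 52.0% over all promoters. No motif was common to all 6 windows, and none in the windows of Adam8, Dok3 and Shkbp1 other than CCAAT was found in more than 1 of those 3.

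In the hippocampus all 9 genes were low after burn, and the other 2 groups lay higher and overlapped each other. Dok3, in batch 1, measured 8.96, 4.73, 3.50, 4.86 and 4.03 CPM in burn, 15.8, 10.5, 27.4, 19.7 and 13.6 in excision, and 6.02, 25.8, 19.3 and 22.1 in sham. In batch 2 it measured 7.86, 8.41, 14.4, 7.21 and 7.61 in burn, 7.84, 18.9, 11.9, 14.4 and 7.54 in excision, and 19.8, 11.2, 24.4, 15.3 and 10.5 in sham. Every burn library of batch 1 was below every excision library, sham replicate 1 lay among the burn libraries, and in batch 2 only burn replicate 8 reached the sham range.

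Adam8 followed the same order. Its batch 1 values were 3.53, 1.29, 0.786, 0.959 and 2.15 CPM in burn, 8.18, 4.33, 7.04, 6.85 and 6.54 in excision and 2.22, 11.5, 7.09 and 10.9 in sham. In batch 2 they were 3.23, 2.80, 6.92, 2.38 and 3.03 in burn, 2.66, 7.65, 5.59, 7.01 and 3.58 in excision and 7.68, 4.26, 7.34, 6.03 and 4.29 in sham. Sham replicate 1 of batch 1 was again low and burn replicate 8 again high. The same sham library held the lowest hippocampal sham value of all 9 genes.

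Ifi203 was measured in batch 1 at 2.08, 1.41, 1.32, 1.57 and 0.403 CPM in burn, 4.32, 2.00, 1.72, 2.76 and 3.27 in excision and 1.44, 2.46, 3.16 and 3.35 in sham. In batch 2 it was at 1.46, 1.32, 1.91, 0.681 and 1.54 in burn, 1.69, 1.75, 3.61, 3.08 and 2.32 in excision and 3.51, 4.11, 2.20, 2.60 and 2.54 in sham. Ifi203 and Noxred1 were the genes whose burn and sham libraries did not overlap in batch 2, as in 1.03% of all genes tested. Noxred1 there read 0.584, 0.457, 1.14, 0.262 and 1.02 in burn and 1.57, 1.22, 1.65, 1.17 and 1.40 in sham.

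The group means followed the selection. Shkbp1 averaged 8.69 ± 3.79 CPM in burn, 14.3 ± 4.88 in excision and 17.1 ± 6.38 in sham (SD; n = 10, 10 and 9). Recql4 averaged 1.77 ± 0.595, 3.08 ± 0.892 and 3.60 ± 1.19, and Ssc5d 1.71 ± 0.883, 2.95 ± 0.711 and 3.44 ± 1.26, in the same order. Crip3 averaged 0.982 ± 0.619, 2.00 ± 0.828 and 2.43 ± 1.04, and Fndc8 1.17 ± 0.575, 2.22 ± 0.567 and 2.37 ± 1.02. In all 5 genes excision lay between burn and sham and nearer to sham.

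**Figure D1:**
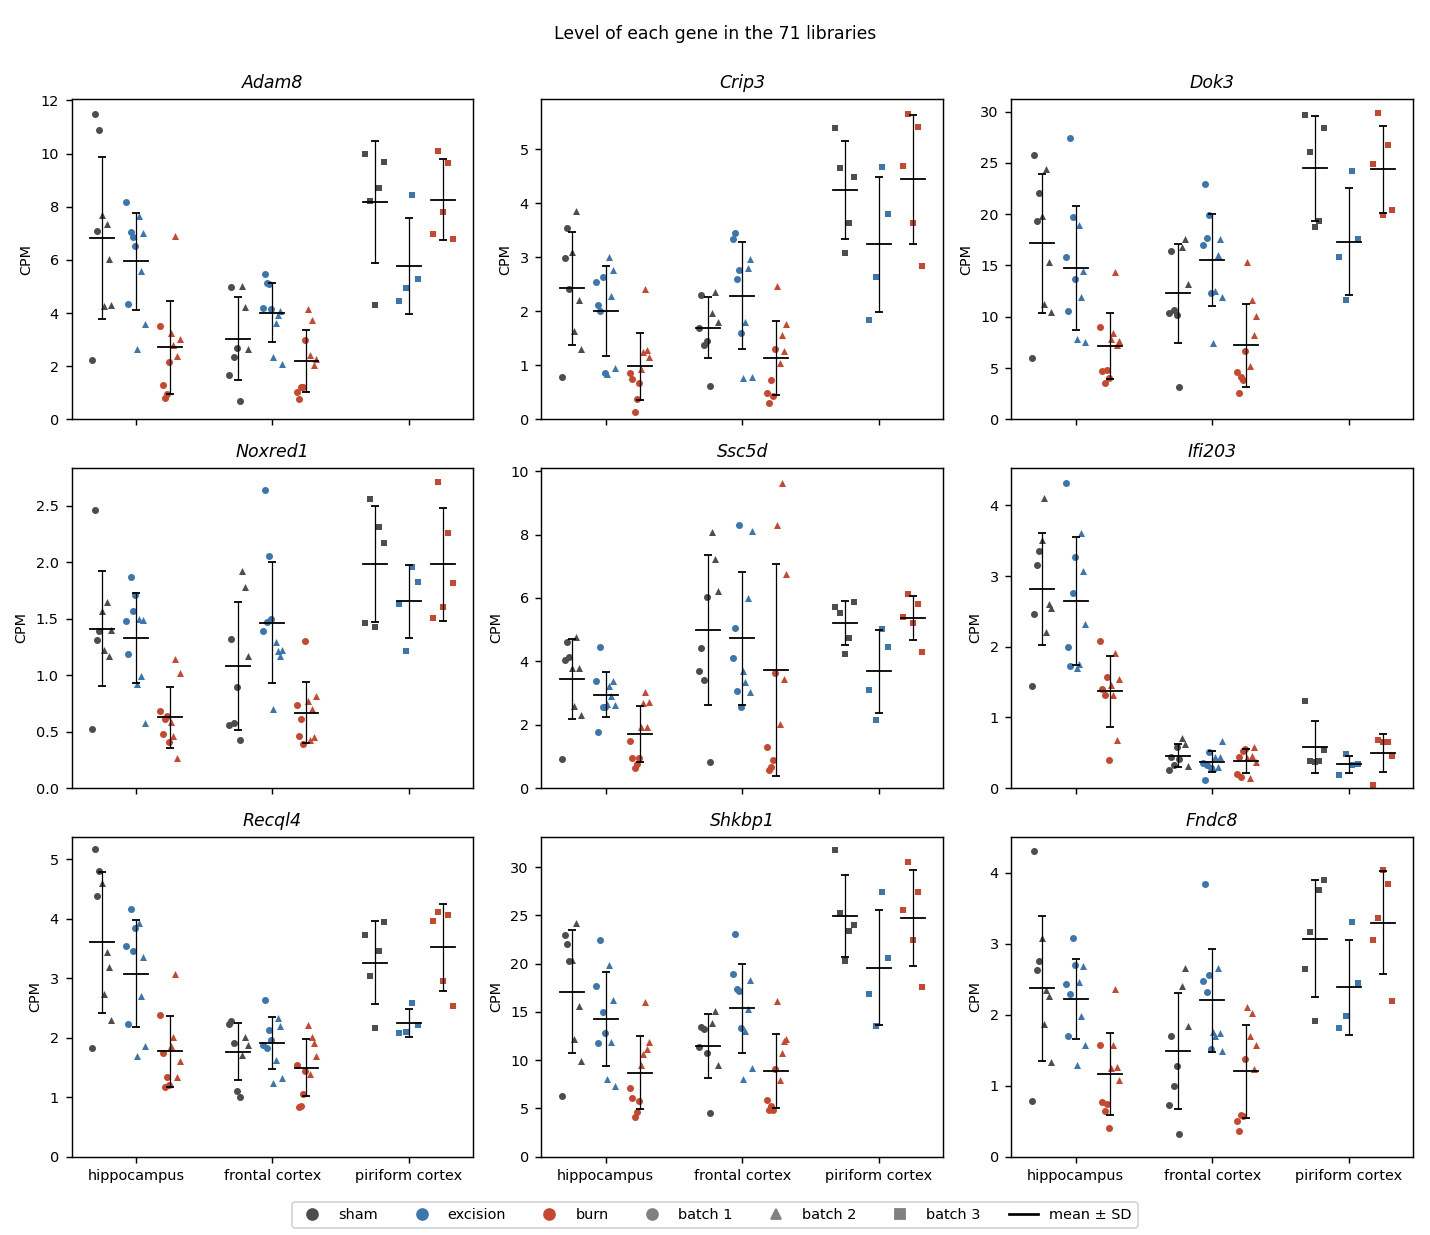
Level of each of the 9 genes (CPM, linear axis from 0) in the 71 libraries, by region and treatment (colour) and batch (symbol), with the mean and SD of each group. Burn libraries are low in the hippocampus but not in the piriform cortex. In frontal cortex batch 1 they lie below the excision libraries in 7 of the 9 genes, all but Ssc5d and Ifi203. Ifi203 reaches at most 1.23 CPM in the cortical libraries.

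On the fitted log2 scale, with batch as a term, the falls after burn against sham ran from -1.34 (Adam8, SE 0.31) and -1.32 (Crip3, SE 0.32) to -1.005 in Shkbp1 and -1.003 in Fndc8 (SE 0.25 each), with Dok3 at -1.26 (SE 0.26), Noxred1 at -1.17, Ssc5d at -1.05, Ifi203 at -1.04 and Recql4 at -1.02. By edgeR's quasi-likelihood test with Benjamini-Hochberg adjustment, 0.741% of 19574 genes were called lower at an adjusted p under 0.05, and all 9 are among them because that is how they were chosen. The genes called lower were ordered by fitted fall, keeping those with a gene symbol, a mean of at least 1 CPM and the same sign in both batches. In that order 3 genes outside the set stand among these 9: Gm20219 at -1.34, Cfp at -1.12 and 4933432I09Rik at -1.02. Cfp encodes properdin, the positive regulator of the alternative complement pathway. Just outside came Tmem86b at -0.96 and Mndal at -0.90. Genes not called were left out of the order, also where they fell further, as Tnfrsf25 did (-1.44, adjusted p 0.0709 by edgeR).

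Excision left these genes near sham in the hippocampus. Against the same sham libraries the fitted log2 differences ran from -0.28 (Ssc5d, Recql4 and Shkbp1 were each at that value) to -0.13 (Ifi203), with all 9 below 0 and a median of -0.26. None of the 9 was called, and no gene was called in that comparison (0% of 19574; 727 genes, 3.71%, had an unadjusted p under 0.05). Burn against excision shares the burn libraries with the contrast that chose the genes. There the differences ran from -1.11 in Adam8 to -0.73 in Shkbp1, none of the 9 had an adjusted p under 0.05 (lowest 0.0555, Ifi203; 0.209% of genes were called), and with DESeq2's Wald test 8 of the 9 did (1.52% of genes were called).

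The fitted falls were larger in batch 1. Fitted alone, hippocampal batch 1 gave burn against sham differences of -2.33 in Adam8, -2.28 in Crip3, -1.95 in Ssc5d, -1.87 in Dok3, -1.77 in Shkbp1, -1.71 in Fndc8, -1.43 in Recql4, -1.41 in Noxred1 and -0.95 in Ifi203, where 7.09% of genes were called. Batch 2, the deeper one, gave -1.12 in Ifi203, -1.01 in Noxred1, -0.84 in Dok3, -0.79 in Crip3, -0.72 in Recql4, -0.69 in Adam8, -0.54 in Fndc8, -0.49 in Ssc5d and -0.48 in Shkbp1, where 0.156% of genes were called. All 9 were below 0 in both batches, with 8 of them further below 0 in batch 1, and Ifi203 slightly further in batch 2. Every burn library lay below every excision library in batch 1 for 7 of the 9 genes (3.51% of all genes did so), the exceptions being Ifi203 and Recql4, and burn against excision fitted in that batch alone called 6 of the 9 by edgeR (1.05% of genes). No gene of the 9 had all burn below all sham libraries in batch 1 (2% of all genes did), where sham replicate 1 was low. That sham library was a shallow one, at 7.34 M counts. So were burn replicate 5 (7.13 M) and excision replicates 3 (6.65 M) and 5 (6.69 M) of the same batch.

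The frontal cortex libraries played no part in choosing the genes, though the labels do not say whether the same mice gave both regions. In 27 cases a hippocampal and a frontal cortex library shared batch and library number, and all 27 pairs had the same treatment label. These pairs include the frontal cortex libraries with disagreeing labels. Within treatment and batch, the mean standardised deviation of the 9 genes correlated over the 27 pairs at r = 0.134 and rho = 0.262. By a two-sided permutation test p was 0.649 for r and 0.239 for rho. These values do not settle whether the mice were the same. If the same mice gave both regions, the frontal cortex was not independent of the choice. After burn against sham there, all 9 fitted differences were below 0, with a median of -0.54 against -0.02 over all genes tested, and none of the 9 was called by edgeR (0.28% of 21077 genes were called). Dok3 stood at -0.87 (SE 0.28, adjusted p 0.164), Ssc5d at -0.72, Noxred1 at -0.71 (SE 0.28, adjusted p 0.281), Crip3 at -0.67 and Adam8 at -0.54 (SE 0.31), and Ifi203 and Recql4 were nearest 0 at -0.30 and -0.28. Without the libraries whose labels disagree, the median was -0.64 and none was called, and in batch 1 alone Dok3 was the 1 gene of the 9 called (6.5% of genes). Noxred1 was at -0.12 and Ifi203 at -0.15 in batch 1 alone, against -1.35 and -0.47 in batch 2 alone. The other genes were further below 0 in batch 1 than in batch 2. Excision against sham gave differences above 0 in 7 of the 9 genes, the highest in Fndc8 at 0.63, and none was called (0% of genes). Without the libraries with disagreeing labels 8 of the 9 were above 0, and none was called.

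Burn against excision was fitted further below 0 than burn against sham in 7 of the 9 frontal cortex genes, all but Ssc5d and Ifi203, and the difference between the 2 is the excision against sham comparison just given, in which none was called. Dok3 was at -1.22 (SE 0.27, adjusted p 0.0549), Noxred1 at -1.13 (SE 0.27, adjusted p 0.0922), Crip3 at -1.10 (SE 0.33), Fndc8 at -1.05 (SE 0.30), Adam8 at -0.96 (SE 0.30) and Shkbp1 at -0.84 (SE 0.23), by edgeR. Ssc5d at -0.66 and Recql4 at -0.38 were smaller, and Ifi203 was at 0.06 (SE 0.27, adjusted p 0.939). None of the 9 passed the adjusted threshold, which 0.209% of genes did. Unadjusted, 7 of the 9 had p under 0.05, as had 11.6% of all genes. DESeq2's Wald test called 5 of the 9, against 0.849% of genes. The burn libraries are shared with the comparison to sham, so these are not separate evidence. Without the libraries with disagreeing labels the differences ran from -1.30 (Dok3) to 0.18 (Ifi203), and none was called.

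The frontal cortex libraries themselves show where the difference sat. Dok3 in batch 1 read 4.60, 2.54, 4.15, 3.82 and 6.68 CPM in burn, 17.0, 23.0, 17.7, 19.9 and 12.3 in excision and 10.4, 16.4, 10.7, 10.1 and 3.13 in sham. In batch 2 it read 15.3, 5.23, 11.6, 8.26 and 10.1 in burn, 7.49, 12.5, 16.1, 17.6 and 12.0 in excision and 16.8, 17.6 and 13.2 in sham. In batch 1 the highest burn library lay well under the lowest excision library, while in batch 2 burn and excision overlapped.

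Shkbp1 gave the same picture. Its batch 1 levels were 5.84, 4.88, 5.26, 4.85 and 9.13 CPM in burn, 18.9, 23.1, 17.4, 17.1 and 13.4 in excision and 11.4, 13.4, 13.3, 10.8 and 4.56 in sham. In batch 2 they were 16.1, 7.95, 10.7, 11.9 and 12.1 in burn, 8.03, 13.0, 15.3, 18.3 and 9.17 in excision and 13.8, 15.1 and 9.48 in sham. Sham replicate 5 of batch 1 lay with the burn libraries in Shkbp1, Dok3 and Adam8 (0.697 CPM in Adam8).

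In batch 1 of the frontal cortex 7 of the 9 genes had every burn library below every excision library, as had 5.5% of all genes tested. The exceptions were Ssc5d, whose burn libraries reached 3.62 CPM, and Ifi203. Fitted alone, batch 1 gave log2 differences of burn against excision of -2.09 in Crip3, -2.06 in Dok3, -1.92 in Fndc8, -1.75 in Adam8, -1.73 in Ssc5d, -1.59 in Shkbp1, -1.38 in Noxred1 and -0.88 in Recql4, and 7 of the 9 were called by edgeR (all but Ssc5d, adjusted p 0.0593, and Ifi203), where 6.45% of genes were called. Batch 2 alone gave -0.81 in Noxred1, -0.37 in Dok3 and values between -0.16 and 0.32 in the other 7, none called (0% of genes). Among the 7 genes called in batch 1, Noxred1 had the smallest gap between the batches, and its batch 2 burn libraries, at 0.774, 0.428, 0.704, 0.453 and 0.813 CPM, also lay below all 3 sham libraries at 1.92, 1.78 and 1.17 CPM, as 2.17% of all genes did. The difference between the batches was tested as an interaction, chosen after seeing the data: it was -1.47 in Shkbp1 (SE 0.36, adjusted p 0.0923), -1.67 in Dok3 (SE 0.44, adjusted p 0.103), -1.79 in Fndc8 and -0.55 in Noxred1 by edgeR, none of the 9 was called, and neither was any of 21077 genes (0%; 2654 had an unadjusted p under 0.05). Without frontal cortex burn replicate 5 it called 6 of the 9 among 343 genes, and without sham replicate 5 it called 3 among 161. All 3 libraries with disagreeing labels are in batch 2. Without them batch 2 alone gave values from -0.65 (Noxred1) to 0.25 (Ssc5d) for burn against excision and from -1.26 (Noxred1) to 0.06 (Shkbp1) for burn against sham, with none of the 9 called, a setting chosen after seeing the data. The interaction without them was -1.66 in Shkbp1 (SE 0.40, adjusted p 0.172) and -1.80 in Dok3 (SE 0.48, adjusted p 0.173) by edgeR, again with no gene called.

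**Figure D2:**
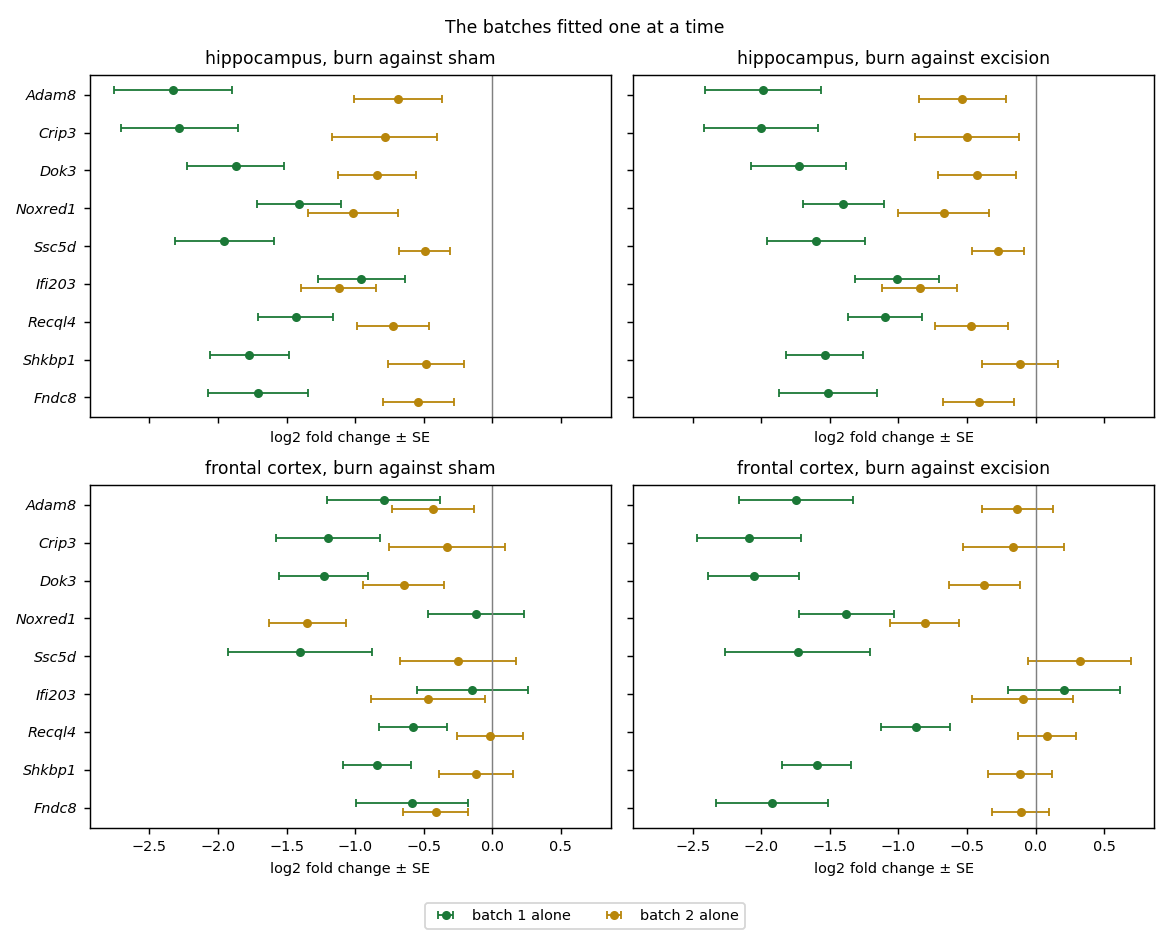
Log2 fold change with its SE for each gene when batch 1 and batch 2 were fitted alone, for burn against sham and burn against excision in the hippocampus and frontal cortex. Batch 1 points lie further below 0 than batch 2 points for 8 of the 9 genes in the hippocampus (all but Ifi203) in burn against sham, and batch 2 points of the frontal cortex, burn against excision, lie between -0.81 (Noxred1) and 0.32 (Ssc5d).

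The piriform cortex held the highest levels of most of these genes, and burn and sham lay close together. Dok3 measured 24.8, 29.8, 19.9, 26.8 and 20.4 CPM in burn, 15.8, 11.6, 24.2 and 17.6 in excision and 29.7, 26.0, 18.8, 19.3 and 28.4 in sham. Adam8 measured 6.96, 10.1, 7.82, 9.66 and 6.79 in burn, 4.46, 4.95, 8.45 and 5.28 in excision and 9.99, 8.24, 4.29, 8.73 and 9.68 in sham. Burn and sham overlapped in both genes, and 3 of the 4 excision libraries lay below every burn library in both.

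Fitted against sham, burn differences in the piriform cortex ran from -0.23 (Ifi203) to 0.11 (Recql4) around a median of 0.01, and excision differences from -0.81 (Ifi203) to -0.27 (Noxred1) around -0.51. Burn against excision was above 0 in all 9, from 0.27 in Noxred1 to 0.66 in Recql4 (SE 0.20, adjusted p 0.52 by edgeR). None of the 9 was called in any of the 3 comparisons, and no gene of 21004 was (0% in each). The piriform library with disagreeing labels is a sham library titled excision. Without it burn against sham ran from -0.36 to 0.11 and excision against sham from -0.94 to -0.17, and with it counted as excision burn against excision ran from 0.11 to 0.56, with none of the 9 called.

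The sign of burn against excision was thus negative in the frontal cortex and positive in the piriform cortex for 8 of the 9 genes. The difference between the regions, tested as an interaction chosen after seeing the data, was -1.72 in Dok3 (SE 0.44, adjusted p 0.145), -1.56 in Crip3, -1.52 in Fndc8, -1.47 in Adam8, -1.40 in Noxred1 and -0.51 in Ifi203 by edgeR. None of the 9 was called, where 0.0352% of 22749 genes were. Without the libraries with disagreeing labels it was -1.76 in Dok3 (SE 0.44, adjusted p 0.142), with none of the 9 called by edgeR. Region and batch cannot be told apart for the piriform cortex, since its batch held no other tissue.

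**Figure D3:**
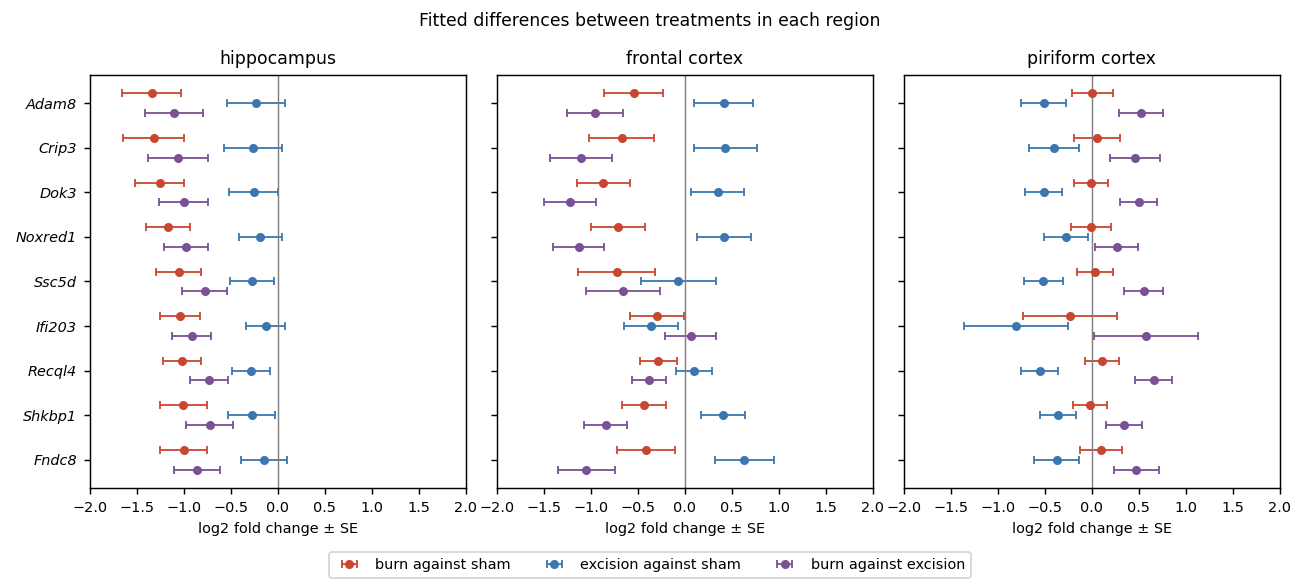
Fitted log2 fold change with its SE for each gene in each region, for 3 comparisons: burn with sham, burn with excision, and excision with sham. In the hippocampus the burn points lie between -1.34 and -0.73 and the points of excision against sham between -0.28 and -0.13, and in the piriform cortex the points of burn against excision lie to the right of 0.

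Levels differed between regions more for Ifi203 than for the other genes. Its mean was 2.82 ± 0.796 CPM in hippocampal sham, 2.65 ± 0.906 in excision and 1.37 ± 0.504 in burn, and every cortical group mean was between 0.335 and 0.579 CPM. Dok3, by contrast, was highest in piriform sham (24.5 ± 5.12) and piriform burn (24.4 ± 4.22), followed by piriform excision (17.3 ± 5.25) and hippocampal sham (17.2 ± 6.80), and lowest in frontal cortex burn (7.23 ± 4.06) and hippocampal burn (7.16 ± 3.20). Ordered by mean over the 9 groups of region and treatment, neighbouring groups differed by more than the larger of their SDs at 2 of 8 steps in Dok3 and in Ifi203, at 1 in Ssc5d and at none in the other 6 genes. Per kilobase of exon, which allows genes to be compared, the median level over all libraries was highest in Dok3 (5.55 RPKM, CPM divided by exonic length in kilobases) and Shkbp1 (3.18), then Crip3 (1.32), Adam8 (0.917), Fndc8 (0.88), Ssc5d (0.749), Noxred1 (0.713) and Recql4 (0.499), and lowest in Ifi203 (0.0873). In CPM, the frontal cortex burn libraries of Ssc5d ran from 0.584 to 9.64, with an SD (3.35) close to their mean (3.72).

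Within treatment and batch, 8 of the 9 genes rose and fell together from library to library. Each library's deviation from its treatment and batch mean was correlated over the 36 pairs of genes. In the 28 frontal cortex libraries, which the choice of genes did not use, all 28 pairs without Ifi203 were called (r from 0.486 to 0.911, Spearman's rho from 0.392 to 0.874, largest adjusted p for r 0.0403 by a two-sided permutation test within treatment and batch, with Benjamini-Hochberg adjustment over 36 pairs), and none of the 8 pairs with Ifi203 was (r from -0.09 to 0.36). By rho, 25 pairs were called. Pairs of other genes were not tested in any region, so the counts of called pairs do not set these genes apart.

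The closest frontal cortex pair was Dok3 and Shkbp1 (r = 0.911, rho = 0.874, adjusted permutation p 5.14e-05 for r and 0.00012 for rho), with r = 0.854 after the 2 libraries farthest from the median were left out, 0.937 in batch 1 and 0.876 in batch 2. Adam8 and Fndc8 followed at r = 0.904 (rho = 0.832) and Crip3 and Shkbp1 at r = 0.883 (rho = 0.853), with adjusted permutation p 5.14e-05 for each r. The weakest of the 28 was Ssc5d with Recql4 at r = 0.486 (rho = 0.456), which fell to 0.312 without the 2 farthest libraries and was 0.59 in batch 1 and 0.27 in batch 2. Over the 28 pairs the median r was 0.828 in batch 1 and 0.628 in batch 2. Without sham replicate 5, 22 pairs were called, and without the libraries with disagreeing labels, 26.

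In the 14 piriform libraries 20 of the 36 pairs were called by r and 16 by rho (median r 0.618), again highest for Dok3 and Shkbp1 (r = 0.899, rho = 0.89, adjusted permutation p 0.00096 for r) and with none of the 8 pairs of Ifi203. In the 29 hippocampal libraries, given as a description because they chose the genes, the median r was 0.745 and the 28 pairs without Ifi203 ran from 0.459 to 0.935. Among those hippocampal libraries Ifi203 had r = 0.591 with Fndc8, 0.512 with Recql4 and 0.47 with Noxred1, and at most 0.342 with the other 5. With its neighbour Mndal it had r = 0.754 (rho = 0.834) in the hippocampus, 0.596 (0.587) in the frontal cortex and 0.454 (0.486) in the piriform cortex. Mndal, another HIN-200 gene, overlaps Ifi203 over 22085 bases on the same strand, so reads of the 2 genes may not be fully separable in these counts.

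**Figure D4:**
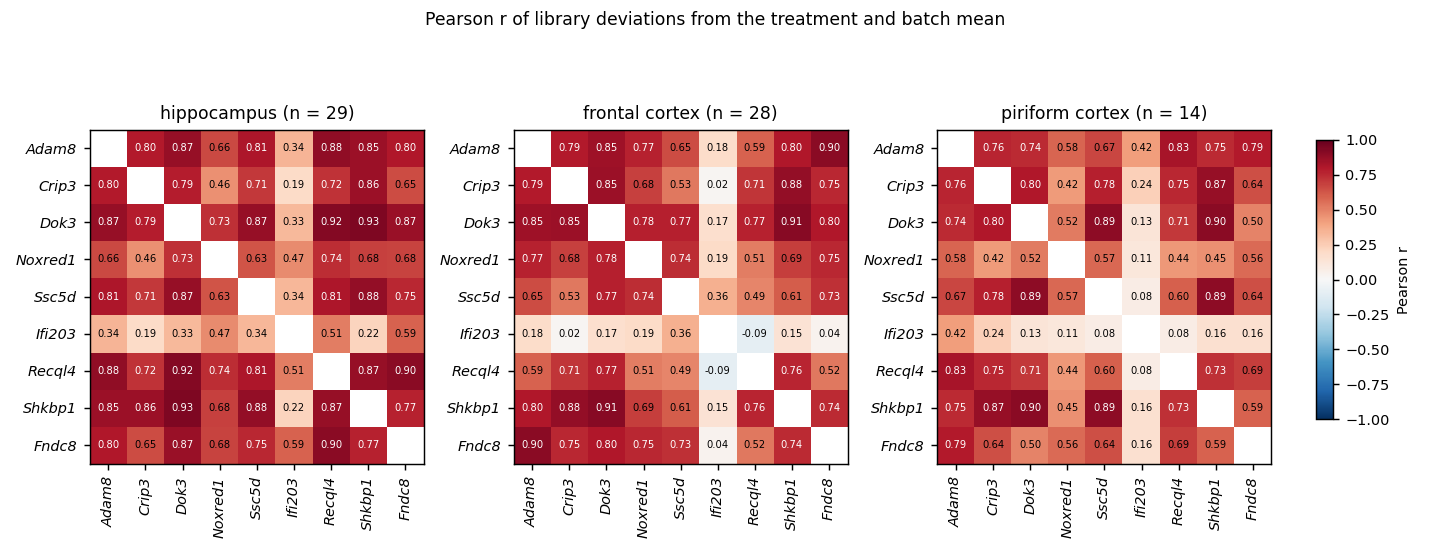
Pearson r between the genes over libraries, after each library's treatment and batch mean was subtracted, in the hippocampus (29 libraries), frontal cortex (28) and piriform cortex (14). The 8 genes other than Ifi203 form a block of positive values in each region, and the row of Ifi203 is paler, most of all in the frontal and piriform cortex.

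One measure of the libraries moved with these genes. GENCODE labels as TEC a class of mostly unspliced gene models that await experimental testing, and the share of counts in them was 0.0498% ± 0.00509 in batch 1 hippocampal burn (SD, n = 5), 0.0605% ± 0.0091 in excision (n = 5) and 0.0694% ± 0.0144 in sham (n = 4), but 0.07%, 0.0729% and 0.0704% in batch 2. In frontal cortex batch 1 it was 0.0621% in burn, 0.0692% in excision and 0.0601% in sham, and in the piriform cortex 0.087%, 0.0752% and 0.0813%. Within treatment and batch, the share correlated with 8 of the 9 genes in the frontal cortex (r from 0.41 to 0.718, the highest in Ssc5d at r = 0.718 and rho = 0.726, adjusted permutation p 0.000108, with r = 0.766 without the 2 farthest libraries), the exception being Recql4 (r = 0.404, rho = 0.405, adjusted permutation p 0.0681). It was called for 6 of the 9 in the piriform cortex, with median r 0.629, and in the hippocampus r had a median of 0.793. How many of all genes correlated with the TEC share was not computed, so these counts do not set the 9 apart. Neither total counts, the mitochondrial share nor the summed choroid plexus markers was called for any of the 9 in any region, over 27 tests for each measure.

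With the TEC share as a covariate, the hippocampal differences of burn against sham ran from -0.90 to -0.53, nearer 0 in all 9 than without it. In the frontal cortex, burn against excision ran from -1.12 to 0.10 with the covariate and 2 of the 9 were called (Dok3 at -1.12, adjusted p 0.0179, and Noxred1 at -1.03, adjusted p 0.0127; 0.304% of genes). With the share taken out of the deviations, 21 of the 36 gene pairs were still called in the frontal cortex (median r 0.541), 10 in the hippocampus (0.417) and 5 in the piriform cortex (0.256). The covariate in the cortex and the share-free correlations were chosen after seeing the data. What sets the TEC share was not tested.

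**Figure D5:**
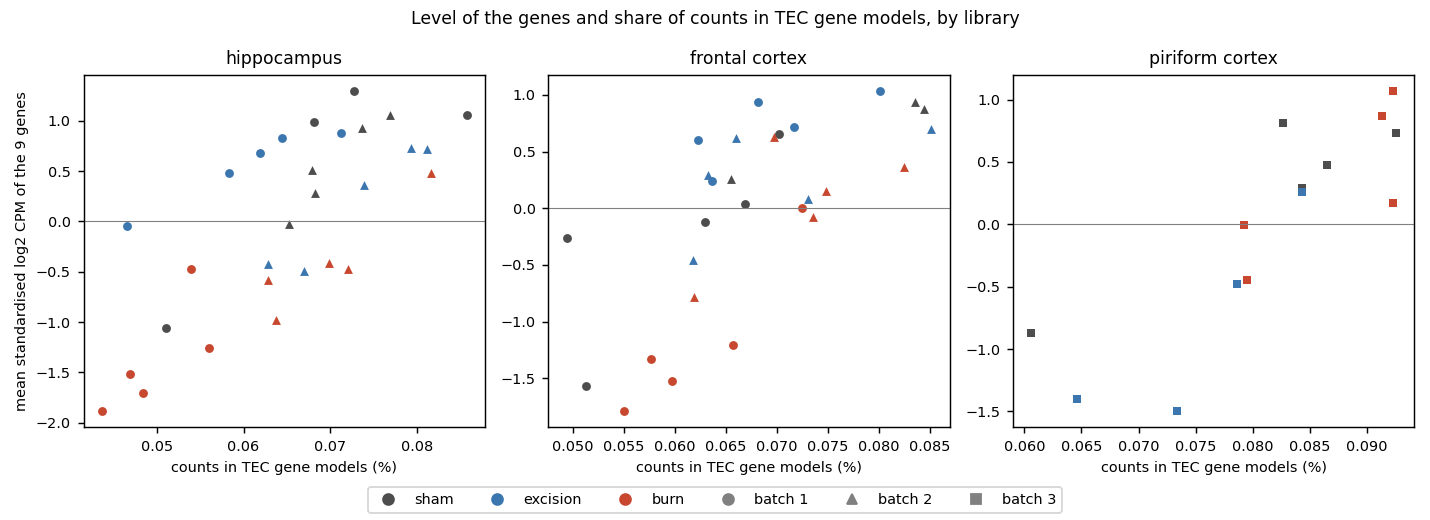
Mean standardised log2 CPM of the 9 genes (y axis) against the percentage of a library's counts in TEC gene models (x axis), one point per library, by treatment (colour) and batch (symbol) in each region. The batch 1 hippocampal burn libraries have shares from 0.0436% to 0.056% and levels from -1.89 to -0.48. Low shares with low levels are also seen in hippocampal sham replicate 1 (0.051%, level -1.06) and frontal cortex sham replicate 5 (0.0513%, level -1.57). Hippocampal excision replicate 2 (0.0466%) and frontal cortex sham replicate 1 (0.0494%) have low shares with levels of -0.04 and -0.26.

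The genes whose hippocampal pattern was most like the mean of the 9 were sought over the 29 hippocampal libraries, by r of deviations from treatment and batch means among 16193 genes. They were Chrd (r = 0.962), Chka (0.957), Snrnp70 (0.956), Sirt4 (0.952), Sfswap (0.949), Tmem86b (0.948), Nxf1 (0.945), Cfp (0.944), Ankzf1 (0.944) and Safb2 (0.939). Snrnp70 encodes a protein of the U1 spliceosomal particle, Sfswap a splicing regulator, Nxf1 the main mRNA export receptor and Chka choline kinase. In the frontal cortex, which did not choose them, the same 10 genes had r from 0.649 (Chrd) to 0.967 (Cfp), and in the piriform cortex from 0.761 (Safb2) to 0.945 (Chka). An r above 0.8 with the mean of the 9 was reached by 383 of 16193 genes in the hippocampus, 207 of 15665 in the frontal cortex and 313 of 15568 in the piriform cortex, so the pattern is not limited to the 9. Taken singly, Dok3 was most like Chka (r = 0.970), Shkbp1 most like Cfp (0.969), Adam8 most like Tnfrsf25 (0.945) and Noxred1 most like Plekhg4 (0.823). The 3 genes most like Ifi203 in the hippocampus, Chrna1, Rtl4 and Fastkd1, had r of -0.36, 0.34 and 0.33 with it in the frontal cortex.

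Relatives of these genes are given for the hippocampus, burn against sham, the comparison on which the 9 were selected, so that the call of the gene itself in each list follows from the choice. Adam8 was the 1 called of 11 tested ADAM proteases (list median -0.07, all genes 0.01), Crip3 the 1 of 3 CRIP proteins (-0.02), Dok3 the 1 of 7 DOK adaptors (-0.02) and Ssc5d the 1 of 7 proteins with scavenger receptor cysteine-rich domains (0.19). Recql4 was the 1 called of 11 RecQ helicases and partners (-0.03), Shkbp1 the 1 of 10 genes of SH3KBP1 and EGF receptor endocytosis (-0.09), Fndc8 the 1 of 8 FNDC genes and Noxred1 the 1 of 7 related NADP-dependent reductases (-0.04). None of these lists held a gene called higher, and 1.03% of all genes were called in either direction. Dok2, the closest of the tested DOK genes to Dok3 by p, stood at -0.45 (adjusted p 0.351 by edgeR), Recql5 at -0.32 (0.211) and Sh3gl1, an endophilin, at -0.30 (0.0504). No gene of 10 for inhibitory signalling in myeloid cells and none of 18 for replication initiation was called, with medians of -0.07 and -0.06.

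The HIN-200 family held a second called gene. Of its 6 tested genes 2 were called lower, Ifi203 and Mndal, and all 6 were below 0 with a median of -0.88, with Ifi205 at -0.97, Ifi211 at -0.86, Ifi204 at -0.65 and Aim2, a DNA sensor of the inflammasome, at -0.06. Members of the family lie side by side and are close in sequence, so counts may be shared among them. Among 17 tested genes of interferon signalling, Stat2 (-0.34, adjusted p 0.0336 by edgeR) and Irf9 (-0.51, adjusted p 0.0348), both parts of the transcription factor complex that answers type I interferon, were called lower, and the list median was -0.08. In the frontal cortex none of 8 tested HIN-200 genes and none of 18 interferon genes was called in burn against excision, with medians of 0.04 and 0.01. That is another comparison than the hippocampal one above. In frontal cortex burn against sham, Ifi203 stood at -0.30 and Mndal at -0.41, and neither was called.

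Of the markers given here for white blood cells and brain cells that could carry these genes, none of those tested was called. None of 15 microglial markers was called in the hippocampus after burn against sham (median -0.04), and their summed level covered 519 to 709 CPM in burn, 497 to 655 in excision and 552 to 658 in sham. The corresponding ranges in the frontal cortex were 543 to 665, 571 to 670 and 582 to 845 CPM. The 8 tested genes of border macrophages had a median of -0.20, the 4 of B and plasma cells -0.93 and the 2 of neutrophils -0.32, with none called. Most listed markers of neutrophils and of B and plasma cells did not pass the count filter and were not tested. The sham libraries include replicate 3, with 255 CPM of neutrophil markers and 44.5 CPM of B and plasma cell markers. In hippocampal libraries the summed microglial level correlated with Ifi203 alone of the 9 (r = -0.646, rho = -0.634, adjusted permutation p 0.0132, and r = -0.557 without the 2 farthest libraries), and its part in the fall of Ifi203 was not tested.

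Choroid plexus markers went the other way in the hippocampus. All 10 were above 0 after burn against sham (median 0.91) and none was called. Their sum ran from 42.8 to 6937 CPM in burn (median 1707), 25.9 to 3117 in excision (median 55.6) and 44.2 to 5284 in sham (median 170), against 4.11 to 36.1 CPM in the frontal cortex, so the sum varied widely between hippocampal libraries of each treatment. Within treatment and batch the sum correlated with the 9 genes at r between -0.508 and -0.098, with none called. In bulk tissue fewer cells of a type and less RNA per cell cannot be told apart.

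Of the genes next to the 9, Mndal was called lower in the same comparison. Tubgcp2, next to Adam8, stood at 0.01 in the hippocampus after burn against sham, Ddx41 next to Dok3 at -0.08, Vipas39 next to Noxred1 at 0.03 and Nat14 next to Ssc5d at -0.01. Mfsd3, which overlaps Recql4 by 687 bases on the opposite strand, stood at 0.12 (adjusted p 0.622 by edgeR), and Nle1, which overlaps Fndc8 by 34 bases, at -0.20. Sptbn4 and Ltbp4, on either side of Shkbp1, stood at -0.27 and -0.26 and were not called. The sources used here do not give the strand setting of the counting, so reads in the overlaps cannot be assigned with certainty.

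The choice did not use the gene models. A transcript with a retained intron is annotated for 7 of the 9 genes (77.8%; 7 such models in Shkbp1, 3 each in Adam8 and Crip3, 1 each in Dok3, Ssc5d, Ifi203 and Recql4, and none in Noxred1 and Fndc8), for 8 of the 10 genes most like them, and for 54.8% of 15099 tested protein-coding genes. The span of the 9 genes was short, with a median of 13631 bases against 24726 over all, while exonic length was similar (4230 against 4398 bases). These shares are descriptions of 9 genes, and no test was made of them.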

How the data were processed

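RNA was sequenced as single-end reads of 100 bases, per the labels' protocols. The authors deposited raw counts per gene for 71 libraries, with FastQC 0.11.3, fastp, STAR, DESeq2 1.24.0 and genome build GRCm38 named in the submitters' processing notes. The sources used here do not give the counting program, its strand setting or the annotation release (all 3 are not stated there). Identifiers were matched to GENCODE M21 (52135 of 55416; the rest held 0.809% of counts).

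Samples were grouped by the treatment and tissue labels, with replicates numbered in accession order. Nothing says that libraries came from separate animals, so p-values measure the spread between these libraries. No 2 libraries of a group were identical over 270 pairs. Each region was fitted with edgeR 4.0.16 in R 4.3.3 (limma 3.58.1 installed): TMM scaling, filterByExpr, quasi-likelihood tests, batch as a term in hippocampus and frontal cortex, and Benjamini-Hochberg adjustment over all genes tested, called at an adjusted p under 0.05. CPM used TMM factors over all libraries, and correlations used log2 CPM with a prior count of 2 and 100000 permutations. DESeq2 1.42.0 was an alternative, with the others in the closing section. On simulated data for hippocampal burn against sham (19376 genes), 97% of genes changed by log2 1 were called. That share need not hold for genes as variable between libraries as these. In the measured libraries edgeR did not call Tnfrsf25 (-1.44, adjusted p 0.0709), Tm6sf2 (-1.29, 0.0604), Gm47135 (-1.29, 0.0676) or Gm14827 (-1.15, 0.0715). These are among the genes most like single chosen genes. Cfp (-1.12, 0.0497) and the chosen Recql4 (-1.02, 0.0146), also among them, were called. The share says nothing of genes not called in the other comparisons.

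The 9 genes and all gene lists were chosen with earlier results of these data known. Named genes outside the 9 are those ranked among or next to them, the 10 most like their mean, the 3 most like single genes, overlapping or near neighbours, and list genes with the lowest p. Within a region and batch, samples of different treatments with the same title number were compared as pairs. Pairs correlating above 0.1 were 4 of 13 and 7 of 15 in hippocampal batches 1 and 2, 6 of 15 and 2 of 9 in those of the frontal cortex, and 4 of 11 in the piriform cortex (medians from -0.0488 to 0.07). These samples were taken to share a number only.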

Additional observations from a re-analysis of the deposited data

Results flagged for a closer look

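In all, 6 values stood apart from the rest of their group by Dixon's test at 95%, of 81 groups of 4 to 10 libraries examined over the 9 genes, and chance alone marks about 1 in 20. All 6 were the highest of their group. Hippocampal burn replicate 8, of batch 2, held 3 of them: 6.92 CPM in Adam8 (next highest burn library 3.53), 2.41 CPM in Crip3 (next 1.28) and 14.4 CPM in Dok3 (next 8.96). Without that library edgeR called 7 of the 9 in burn against excision, where 1.68% of all genes were called (0.209% with it). Those libraries are also the ones that chose the genes.

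Noxred1 measured 1.30 CPM in frontal cortex burn replicate 5 (next 0.813), the batch 1 burn library that was also the highest of that batch in Dok3, Shkbp1 and Adam8. Fndc8 measured 3.84 CPM in frontal cortex excision replicate 2 (next 2.66). Ifi203 measured 1.23 CPM in piriform sham replicate 1 (next 0.541), the library with 523 CPM of hippocampal neuron markers and 217 CPM of choroid plexus markers, and Ifi203 averaged 2.82 CPM in hippocampal sham. The part of these markers in the Ifi203 level was not tested.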

How the results depend on the processing

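Members called in hippocampal burn against sham (9) fell to 1 with the TEC share as covariate and 0 in batch 2 alone, where 0.156% of all genes were called. The share of all genes called with that covariate is not given here, so the fall to 1 cannot be set against it. Members called ran from 4 to 9 with single libraries left out (4 without burn replicate 2, 3, 4 or 5 or sham replicate 2, 3, 4, 5 or 7, where 0.256% to 0.543% of all genes were called, against 1.03% with all libraries). These libraries chose the genes, so the counts describe the choice. Burn against excision there went from 0 to 8 with DESeq2's Wald test, 6 in batch 1 alone and 0 to 7 with single libraries left out (7 without burn replicate 8, where 1.68% of all genes were called, against 0.209% with it). In the frontal cortex burn against sham gave 1 in batch 1 alone (Dok3), and burn against excision gave 5 with DESeq2, 2 with the TEC covariate, 7 in batch 1 alone and 0 to 4 with single libraries left out (4 without burn replicate 6, where 1.35% of all genes were called, and 3 without excision replicate 6, where 0.423% were, against 0.209% with all). Called pairs of co-varying genes ran from 22 to 28, and the batch interaction from 0 to 6. The other comparisons gave 0 throughout. The cause was not tested, except that fitting 1 batch uses fewer libraries.

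Sign changes occurred in frontal cortex burn against excision, batch 2 alone, for Ssc5d (0.32), Recql4 (0.0839) and Ifi203 (-0.0945), and for Ifi203 also with 1 library left out (from -0.0374 to 0.173). In batch 2 without the libraries with disagreeing labels, chosen after seeing the data, Crip3 (0.0137), Ssc5d (0.246), Recql4 (0.141) and Shkbp1 (0.0858) were above 0 in burn against excision, and Recql4 (0.0505) and Shkbp1 (0.0564) in burn against sham. Noxred1 in piriform burn against excision was -0.0172 with the TEC covariate.

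Over all genes, DESeq2 called 670 where edgeR called 202 in hippocampal burn against sham, 298 against 41 in burn against excision, 346 against 59 and 179 against 44 in the frontal cortex, and 63 against 0 in piriform burn against excision. With no count filter the hippocampal counts were 123 and 21, and the frontal cortex counts 24 and 12. With a replicate block, pairing libraries by number, 7 of the 9 were called in hippocampal burn against sham (169 genes in all), and 0 in every other comparison.

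The lowest count behind a level was 3, in Noxred1, Ifi203 and Fndc8 of hippocampal burn replicate 5 (batch 1), where counting error is largest.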
